A study of Mus musculus with 960 samples.

Results

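Accessible chromatin on protein-coding exons, away from the starts of genes, was described in a mouse breast tumour. Each member is a 500 bp window of the authors' list of accessible regions whose midpoint lay more than 1 kb from every start of a protein-coding transcript and inside a coding interval of such a transcript (genome build mm9, GENCODE release M1). Of the 50000 windows, 946 met this rule (1.89%). The list held 14549 further windows in introns and 16011 in intergenic sequence at the same distance from starts, which served for comparison. A further 17934 windows lay within 1 kb of a start, and 560 lay on untranslated exons.

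The cells came from a breast tumour of the MMTV-PyMT mouse, in which a promoter active in mammary epithelium drives a viral oncogene, and the study's methods give the age as 3 months. The labels list 960 wells as single cells on 10 plates. Antibodies marked EpCAM, which is found on epithelial cells, on every plate, together with HIF1α, which builds up in cells short of oxygen, on 8 plates and with CD45, which is carried by white blood cells, on the other 2. Cells were fixed, permeabilized and stained, and Tn5 transposase cut and tagged accessible DNA before sorting, in the assay called Pi-ATAC. The windows were called on pooled cells, so the list is 1 sample with no replicates, wells and stains cannot be compared, and the sources used here do not say whether CD45-stained wells entered the pool.

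The list carries positions and names, with no score or read count, so the depth behind each window is unknown. All intervals below are 95% intervals over windows, bases or genes and cover counting error only. Because neighbouring windows can share reads and called peaks, the p-values are smaller than independent windows would give, and they describe this list, not animals. Epcam and Hif1a each had a window within 1 kb of a start and no coding exon window, and Ptprc, which encodes CD45, had neither.

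Coding exons carry the sequence that is translated into protein, and most are short islands between long introns. Their bases are constrained by the genetic code, and they hold more G and C than the introns around them. Transcription factors can also bind within them, and a coding exon may overlap a CpG island, an enhancer or an unannotated or noncoding promoter. CpG islands are stretches rich in the dinucleotide CG that are usually unmethylated and accessible. ATAC-seq reads show where DNA can be cut, not which protein opened it.

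The 6 stretches below were chosen by rule to show what such windows look like. The first 3 come from the called peaks with the most windows, and the other 3 are the leading windows of the genes with the most members. Each sequence gives the central 200 bp of the window on the gene's strand, 5′ to 3′, with coding bases in capitals.
Dusp6 (chr10:98727410-98727609, plus strand): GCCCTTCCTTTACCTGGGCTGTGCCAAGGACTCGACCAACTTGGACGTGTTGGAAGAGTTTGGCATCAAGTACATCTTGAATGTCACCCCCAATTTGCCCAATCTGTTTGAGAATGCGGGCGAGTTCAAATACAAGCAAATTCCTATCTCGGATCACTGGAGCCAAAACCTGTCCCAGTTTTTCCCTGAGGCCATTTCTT
Trib2 (chr12:15822112-15822311, minus strand): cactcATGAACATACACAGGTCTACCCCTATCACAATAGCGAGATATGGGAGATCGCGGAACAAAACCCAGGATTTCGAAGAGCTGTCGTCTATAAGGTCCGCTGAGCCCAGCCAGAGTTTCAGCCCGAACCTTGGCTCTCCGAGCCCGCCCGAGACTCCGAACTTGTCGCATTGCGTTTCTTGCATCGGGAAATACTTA
Jun (chr4:94717268-94717467, minus strand): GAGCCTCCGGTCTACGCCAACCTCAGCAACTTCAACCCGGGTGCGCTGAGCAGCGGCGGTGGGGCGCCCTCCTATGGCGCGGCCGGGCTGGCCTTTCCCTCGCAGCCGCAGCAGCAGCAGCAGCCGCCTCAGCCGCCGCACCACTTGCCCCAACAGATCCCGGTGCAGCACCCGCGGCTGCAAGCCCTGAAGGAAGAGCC
Lor (chr3:91884503-91884702, minus strand): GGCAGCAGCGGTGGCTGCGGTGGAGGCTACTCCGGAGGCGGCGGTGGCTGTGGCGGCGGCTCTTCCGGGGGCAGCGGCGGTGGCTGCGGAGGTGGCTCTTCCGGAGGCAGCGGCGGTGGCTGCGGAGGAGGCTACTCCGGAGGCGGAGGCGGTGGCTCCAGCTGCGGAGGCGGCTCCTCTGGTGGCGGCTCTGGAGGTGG
BC068157 (chr8:4213044-4213243, minus strand): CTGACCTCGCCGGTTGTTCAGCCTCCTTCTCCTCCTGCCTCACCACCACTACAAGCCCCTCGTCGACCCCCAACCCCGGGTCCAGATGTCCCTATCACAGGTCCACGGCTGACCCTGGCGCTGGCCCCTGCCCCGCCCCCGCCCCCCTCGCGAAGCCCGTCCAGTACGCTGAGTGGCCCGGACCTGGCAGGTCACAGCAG
Tcfap2b (chr1:19204059-19204258, plus strand): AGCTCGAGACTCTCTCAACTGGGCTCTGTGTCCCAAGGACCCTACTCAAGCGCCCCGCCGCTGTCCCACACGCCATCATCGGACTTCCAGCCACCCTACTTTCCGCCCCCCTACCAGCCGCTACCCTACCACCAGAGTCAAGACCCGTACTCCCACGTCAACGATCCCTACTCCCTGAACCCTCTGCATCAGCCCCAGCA
All 200 bases were coding in 5 of these sequences. In Trib2 the coding sequence began a few bases into the stretch. The Lor stretch is a glycine-rich repeat of GGC and GGT triplets, and the Jun stretch holds a run of CAG triplets.

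A second set shows matches to transcription factor motifs. For each motif, the member whose match lay closest to the window's midpoint is shown, with 120 bp around the midpoint on the gene's strand and the match in capitals. Motifs were searched on both strands, so a match may read as the reverse complement.
Cldn6 (chr17:23818168-23818287, plus strand): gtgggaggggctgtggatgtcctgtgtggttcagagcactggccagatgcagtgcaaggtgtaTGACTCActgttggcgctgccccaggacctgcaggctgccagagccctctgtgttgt
Hif3a (chr7:17636461-17636580, minus strand): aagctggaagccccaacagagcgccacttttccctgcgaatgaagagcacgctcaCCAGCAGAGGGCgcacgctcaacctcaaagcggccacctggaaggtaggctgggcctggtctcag
Lor (chr3:91884543-91884662, minus strand): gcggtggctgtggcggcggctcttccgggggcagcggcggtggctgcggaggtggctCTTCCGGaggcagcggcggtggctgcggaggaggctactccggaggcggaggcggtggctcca
Bcl7a (chr5:123806047-123806166, plus strand): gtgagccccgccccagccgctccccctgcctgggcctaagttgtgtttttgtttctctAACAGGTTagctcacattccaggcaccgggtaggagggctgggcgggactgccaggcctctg
Rtn4rl2 (chr2:84712380-84712499, minus strand): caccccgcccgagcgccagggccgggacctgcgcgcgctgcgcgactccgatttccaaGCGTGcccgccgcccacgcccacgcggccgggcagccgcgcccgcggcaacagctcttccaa
Stk36 (chr1:74673064-74673183, plus strand): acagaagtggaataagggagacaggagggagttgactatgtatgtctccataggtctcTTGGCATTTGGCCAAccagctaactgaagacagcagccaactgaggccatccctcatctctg
In order, these hold an AP-1 match in Cldn6 (claudin 6, a tight junction protein), a CTCF match in Hif3a (a HIF alpha subunit gene), and an ETS match in Lor. The remaining ones hold a GRHL match in Bcl7a (a subunit of SWI/SNF remodelling complexes), a HIF core match in Rtn4rl2 (a Nogo receptor family protein), and an NFI match in Stk36 (a kinase of the Hedgehog pathway). The centre of the match lay 6.5 bp from the midpoint for AP-1, 1 bp for CTCF, 0.5 bp for ETS, 2 bp for GRHL, 0.5 bp for the HIF core and 5.5 bp for NFI. The NFI match was the only one among the 946 members.

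Few windows were wholly coding. The median member had 262.5 coding bases of 500, 19.1% of members were coding throughout, and 54.1% had at least 250 coding bases. The coding interval under the midpoint was 300 bp or shorter in 57.6% of members, and its upper quartile was 736.5 bp. The midpoint of members lay a median of 65 bp from the nearer edge of its coding interval. The members were compared below with coding exons without a window (169199 exons over 1 kb from a start, with no window midpoint within 500 bp of their centre). Only the centre was checked, so a long exon with windows farther from its centre, such as that of Irs1, is also in this set. The 169199 exons were shorter than those under members, by median length. The 500 bp around them also held fewer coding bases by median, and their upper quartile was below 250. The sets were not matched for coding content, apart from an added limit to coding intervals over 300 bp. The part of coding content in the GC, CpG and motif differences from these exons was not tested further.

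Members were spread over all distances from starts. The median distance to the nearest protein-coding start was 7022.5 bp. Of the members, 20.5% lay at 1 to 2 kb, 21.9% at 2 to 5 kb, 18.1% at 5 to 10 kb, 31.5% at 10 to 50 kb and 8.03% farther than 50 kb. The nearest start belonged to the gene whose exon held the window in 75.6% of members. Intron windows lay farther out, at a median of 16785 bp, and intergenic windows at 33919 bp.

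Accessible windows were denser on coding exons than in introns. Coding sequence over 1 kb from every start covered 29.0 Mb and held 32.6 windows per Mb (interval 30.5 to 34.7). Introns held 16.5 windows per Mb over 883.1 Mb, and intergenic sequence held 10.3 per Mb over 1559 Mb. The density on coding sequence was 1.98 times that in introns (interval 1.85 to 2.11, two-sided exact binomial test, p = 6.0e-76) and 3.17 times that in intergenic sequence (interval 2.97 to 3.39). With 1 window kept per host gene and the bases left unchanged, the ratio to introns was 5.43. That limit removed a larger part of the intron windows than of the members, so it raised the ratio by construction and tests nothing. The ratio to introns was above 1 on each of the 20 chromosomes, from 1.35 on chromosome 18 to 4.72 on chromosome X. On X, coding sequence held 20.7 windows per Mb (22 windows) and introns held 4.38 per Mb.

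Density fell with distance from starts in all 3 kinds of sequence, and coding sequence was the densest in every distance bin. At 1 to 2 kb, coding sequence held 80.3 windows per Mb and introns 47.5, a ratio of 1.69 (interval 1.45 to 1.96). The ratio was 1.68 at 2 to 5 kb (interval 1.45 to 1.94), 1.57 at 5 to 10 kb (interval 1.34 to 1.84) and 1.35 at 10 to 50 kb (interval 1.20 to 1.52). Beyond 50 kb, coding sequence held 20.3 windows per Mb against 9.23 in introns, a ratio of 2.20 (interval 1.73 to 2.76). All 5 bins, chosen after the data were seen, had intervals above 1. Each territory counted all of its sequenced bases, and the part of mappability in these ratios was not tested.

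**Figure D1:**
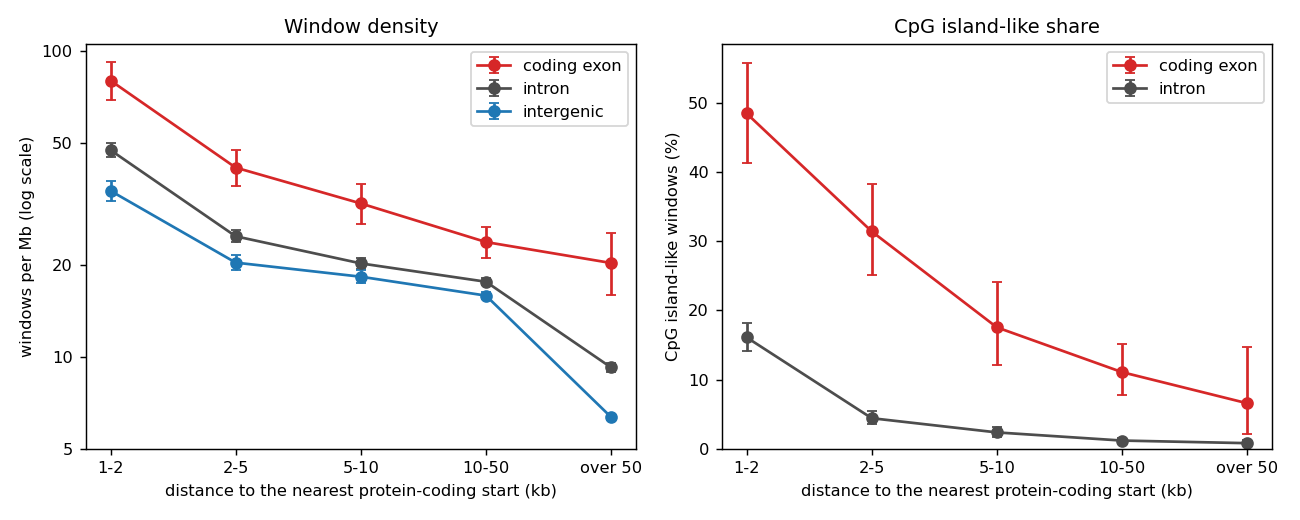
Windows per Mb (left, log scale) for coding, intron and intergenic sequence and the CpG island-like share of coding and intron windows (right), by distance to the nearest protein-coding start in kb; error bars are exact 95% intervals. Coding exons lie above introns in all 5 bins in both panels, from 80.3 against 47.5 windows per Mb at 1 to 2 kb to 20.3 against 9.23 beyond 50 kb.

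Density differed by the place of the exon within the coding sequence. Each base was counted under the first of first, single, last and internal that applied in any transcript. An exon that ends an incomplete transcript can thus count as last. Windows fell on internal coding exons in 58.2% of members, on last ones in 22.6%, on first ones in 10.0% and on the only coding exon of a transcript in 9.09%. Internal coding exons held 26.9 windows per Mb, last coding exons 37.6, first coding exons 63.6 and single coding exons 63.8. The first coding exon was thus 2.37 times as dense as internal ones (interval 1.88 to 2.95, exact binomial test, p = 2.0e-12), and the last 1.40 times (interval 1.19 to 1.64, p = 4.3e-05). The single coding exons were 2.38 times as dense as internal ones (interval 1.87 to 2.99).

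Distance moved with these differences. Windows on first coding exons lay a median of 1564 bp from a start and those on single coding exons 1803 bp, against 9849 bp for internal and 6513.5 bp for last coding exons. Beyond 2 kb from every start, the ratio of first to internal coding exons was 1.39 (p = 0.0514) and beyond 5 kb it was 1.32 (p = 0.238), so the difference was no longer past the threshold of 0.05. The ratio of last to internal coding exons stayed past the threshold at both distances.

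Longer coding intervals were denser up to a point. Intervals of up to 150 bp held 23.1 windows per Mb of coding sequence, and those over 150 and up to 300 bp held 31.3. The density was highest at 54.8 per Mb for intervals over 300 and up to 600 bp. It was 44.6 per Mb at 600 to 1000 bp and 41.3 per Mb above 1000 bp, and the intervals of these 3 longer bins overlap.

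**Figure D2:**
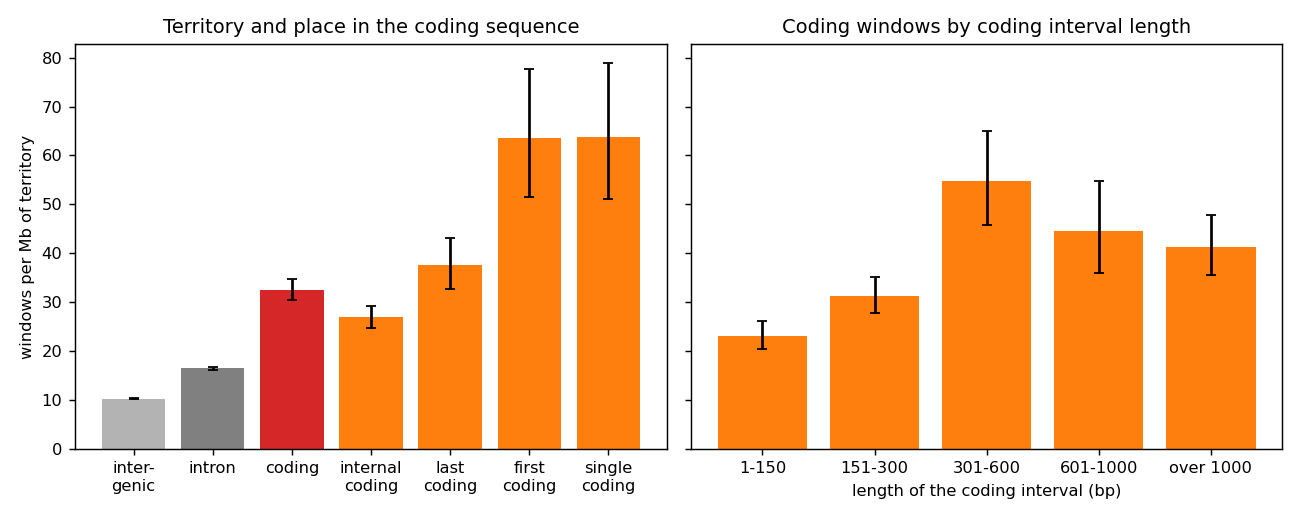
Windows per Mb for intergenic, intron and coding sequence over 1 kb from every start and for coding exons by place in the coding sequence (left), and for coding sequence by the length of its interval in bp (right); error bars are exact 95% Poisson intervals. First and single coding exons stand at 63.6 and 63.8 windows per Mb, above internal coding exons at 26.9.

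Members were rich in G, C and CpG. Their median GC content was 56.4% (quartiles 51.6 and 61.4%), against 50.6% in intron windows, 50% in intergenic windows, 47.4% in 500 bp around coding exons without a window and 62% in windows at starts. The median member held 14 CpG dinucleotides, against 7 in each of intron windows, intergenic windows and coding exons without a window, and 35 in windows at starts.

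A window was called CpG island-like when its GC content was at least 50% and its ratio of observed to expected CpG at least 0.6. By this measure 24.0% of members were island-like (interval 21.3 to 26.8%). The share was 3.11% in intron windows, a difference of 20.9 percentage points (interval 18.3 to 23.7, two-sided Fisher exact test, adjusted p = 2.2e-110). In intergenic windows the share was 6.63%, a difference of 17.4 points (interval 14.7 to 20.2, adjusted p = 2.7e-58). Coding exons without a window were island-like in 1.06%, a difference of 22.9 points (interval 20.3 to 25.8, adjusted p = 1.4e-220). Adjustment was over 38 tests of window shares. Among windows and exons of 50 to 60% GC, a restriction chosen after the data were seen, 8.03% of the members in that range were island-like. That was 5.75 points above intron windows and 6.52 points above coding exons without a window, both past the threshold, but only 1.88 points above intergenic windows (interval -0.274 to 4.66, adjusted p = 0.196).

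The island-like share fell with distance and differed by exon. It was 48.5% at 1 to 2 kb from a start, 31.4% at 2 to 5 kb, 17.5% at 5 to 10 kb, 11.1% at 10 to 50 kb and 6.58% beyond 50 kb. For intron windows the same bins gave 16.1%, 4.42%, 2.37%, 1.19% and 0.812%. Single coding exons were island-like in 48 of 86 windows (55.8%), first ones in 40.0%, last ones in 36.0% and internal ones in 11.6%. The matching shares of coding exons without a window were 10.8% for single, 3.49% for first, 2.40% for last and 0.666% for internal coding exons. The interval for last coding exons was 29.6 to 42.8%. All windows on last coding exons, island-like or not, lay a median of 6.51 kb from a start.

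Starts of other transcripts lay near some members. Within 1 kb of 14.0% of members was the start of an annotated transcript that does not code for protein, against 6.25% of intron windows, a difference of 7.70 points (upper bound 10.1, adjusted p = 1.6e-15). In 98 of these (74.2%) that transcript belonged to the host gene itself. Processed transcripts made up 50 of them, retained-intron transcripts 45, antisense transcripts 13, nonsense-mediated decay transcripts 10 and long intergenic noncoding RNAs 7. Of the coding bases over 1 kb from protein-coding starts, 26232716 of 29045645 lay over 1 kb from every annotated start. Of the intron bases, 858392300 of 883058026 did. A larger part of coding than of intron sequence thus lay near a start of these other transcripts. The part of this in the 7.70 points was not tested, and coding exons without a window were not compared. Leaving out every window within 1 kb of any annotated start kept the density, exon order and CpG differences past the threshold.

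Most members stood alone in their called peak. The 946 members came from 897 called peaks, and 73.3% of members were the only window kept from theirs. A called peak with several windows was the source of 26.7% of members, 30.1% of intron windows and 31.7% of intergenic windows. These are differences of -3.40 points (interval -6.22 to -0.392, adjusted p = 0.0408) and -4.94 points (interval -7.76 to -1.94, adjusted p = 0.0022). Counted per called peak instead, the shares were higher than in introns by 5.49 points and than in intergenic sequence by 5.57 points, so the direction depends on the unit counted. A called peak shared with a window at a start was seen for 58 members (6.13%), with an intron window for 13.6% and with another member for 90 (9.51%).

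Other windows were often close. The median distance to the nearest other window was 2654 bp, and 59.5% of members had another window within 5 kb. The share was 63.2% in intron windows, a difference of -3.71 points (interval -6.96 to -0.525, adjusted p = 0.0363), and 59.3% in intergenic windows, a difference of 0.242 points (interval -3.01 to 3.42, adjusted p = 0.941). With 1 window per host gene the first difference turned to 10.7 points. The nearest other window was in an intron for 38.4% of members, at a start for 31.3%, on another coding exon for 17.5%, intergenic for 8.88% and on an untranslated exon for 3.91%. For intron windows it was at a start in 18.1% and on a coding exon in 2.32%.

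The motif content of members was set against intron windows and against 500 bp around coding exons without a window, for 15 motifs. Both strands were searched, and matches of different motifs may overlap. More members than intron windows held the ETS, SP/KLF, HIF core, AP-2 and SNAI/ZEB E-box strings. Fewer held AP-1, GATA, C/EBP, TEAD, RUNX and FOX. These 11 differences passed the threshold (two-sided Fisher exact test, adjusted over the 38 tests). Differences from introns for GRHL, CTCF, STAT and NFI did not pass it. A match is only a string of letters and does not show that a factor binds there.

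AP-1 factors, dimers of Jun and Fos proteins, often mark enhancers of epithelial tumours. Their motif, TGACTCA or TGAGTCA, was found in 55 members (5.81%) and in 13.4% of intron windows, a difference of -7.62 points (interval -9.05 to -5.85, adjusted p = 5.9e-13). In coding exons without a window it was found in 7.56%, a difference of -1.74 points that missed the threshold (adjusted p = 0.0586). Among windows of 50 to 60% GC the AP-1 share was 7.23% in members and 13.9% in intron windows (difference interval -8.82 to -3.97, adjusted p = 5.0e-05). Across the 9 alternatives run for AP-1 against introns, the difference ranged from -8.75 to -5.22 points and passed the threshold in each.

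ETS factors include the epithelial Elf and Ehf proteins and the Ras-responsive Ets and PEA3 proteins. The ETS string, CCGGAAG, was found in 87 members (9.20%), in 3.84% of intron windows and in 3.62% of coding exons without a window. The differences were 5.36 points (interval 3.65 to 7.39, adjusted p = 5.1e-12) and 5.58 points (interval 3.89 to 7.59, adjusted p = 3.3e-14). Within 50 to 60% GC the share was 10.2% in members against 4.55% in intron windows and 5.58% in coding exons without a window, both differences past the threshold (adjusted p = 5.7e-06 and 0.00024). The string holds a CpG, and in this range 8.03% of members were island-like, against 2.28% of intron windows and 1.51% of those exons. Without island-like windows the ETS shares were 9.32%, 3.67% and 3.55%, both differences past the threshold. The part of CpG content in these differences was not tested.

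Calls for other GC-rich strings changed among windows of like GC content. SP/KLF matches (GGGCGG) were found in 30.7% of members, 16.9% of intron windows and 9.91% of coding exons without a window. Within 50 to 60% GC the shares were 21.7%, 20.2% and 16.5%, and the difference from introns missed the threshold (1.46 points, interval -2.06 to 5.39, adjusted p = 0.612) while that from coding exons without a window passed it (adjusted p = 0.0092). AP-2 matches (GCCNNNGGC), in 30.9% of members against 23.9% and 13.3%, lost both calls within this range (adjusted p = 0.539 and 0.0620).

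The HIF core (ACGTG or GCGTG), part of the hypoxia response element, was found in 60.4% of members, 47.3% of intron windows and 44.3% of coding exons without a window. It is 5 bases long and holds a CpG, and within 50 to 60% GC the shares were 54.4%, 49.3% and 53.3%, with neither difference past the threshold (adjusted p = 0.0658 and 0.774). Without island-like windows the shares were 52.0%, 46.1% and 43.8%, with both differences past it (two-sided Fisher exact test, adjusted p = 0.0044 and 3.8e-05).

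The E-box string CAGGTG was found in 49.5% of members, 39.4% of intron windows and 38.9% of coding exons without a window. It reads like the end of an exon followed by a splice donor, and 58 of the matches in members (8.63%) lay exactly across the end of a coding interval on the gene's strand. Matches across the start of a coding interval, where an intron ends, were not counted. Within 50 to 60% GC it was found in 51.8% of members, 44.8% of intron windows and 52.3% of coding exons without a window, so only the difference from introns remained past the threshold (adjusted p = 0.0099).

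Against coding exons without a window, CTCF, a factor that anchors chromatin loops, stood out. Its core, a string of 12 bases, was found in 23 members (2.43%) and in 0.410% of coding exons without a window, a difference of 2.02 points (interval 1.21 to 3.21, adjusted p = 9.9e-11). Within 50 to 60% GC the shares were 1.81% and 0.677% (adjusted p = 0.0254). The interval of its share in intron windows was 1.58 to 2.02%, a difference of 0.637 points (interval -0.200 to 1.85, adjusted p = 0.192). GRHL (AACNGGTT), the motif of Grainyhead-like factors of epithelia, was found in 4.65% of members, 5.89% of intron windows and 3.71% of coding exons without a window, with neither difference past the threshold. Against the latter, GRHL was higher past the threshold in 3 alternatives, by 2.06 points at 50 to 60% GC (adjusted p = 0.0331), by 1.28 points in the central 200 bp (adjusted p = 0.0055) and by 1.70 points without island-like windows (adjusted p = 0.0396). With members and exons both limited to coding intervals over 300 bp, the difference was -0.494 points (adjusted p = 0.815).

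Calls for strings rich in A and T changed within that GC range too. The GATA string AGATAA was found in 9.73% of members, 16.6% of intron windows and 22.8% of coding exons without a window. The FOX string TGTTTAC was found in 4.12%, 7.32% and 6.37%, and both strings differed from both sets past the threshold. Within 50 to 60% GC, where there were fewer sequences, these calls were lost. FOX was then found in 4.02% of members and 6.16% of intron windows (difference interval -3.65 to 0.0305 points, adjusted p = 0.109). GATA was found in 10.2% and 13.3% (difference interval -5.51 to 0.0560, adjusted p = 0.109). Differences of the size seen over all windows lie within the interval for FOX but not for GATA. Against coding exons without a window the adjusted p was 0.355 for GATA and 0.551 for FOX.

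C/EBP (TTGCNNAA) was found in 16.2% of members and 21.4% of intron windows. TEAD was found in 23.6% and 28.5%, and RUNX in 7.82% and 12.1%. These 3 did not differ past the threshold from coding exons without a window (adjusted p = 0.126, 0.591 and 0.0727). C/EBP was higher in members than in those exons within 50 to 60% GC, at 16.5% against 12.6% (adjusted p = 0.0333). The TEAD string was GGAATG.

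The RUNX string was TGTGGTT. Within 50 to 60% GC the differences from introns missed the threshold for C/EBP (interval -4.52 to 2.23 points, adjusted p = 0.612), TEAD (interval -6.36 to 1.65, adjusted p = 0.380) and RUNX (interval -2.98 to 2.55, adjusted p = 0.855). The STAT string TTCCNGGAA was found in 14 members (1.48%), and the NFI string in 1.

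**Figure D3:**
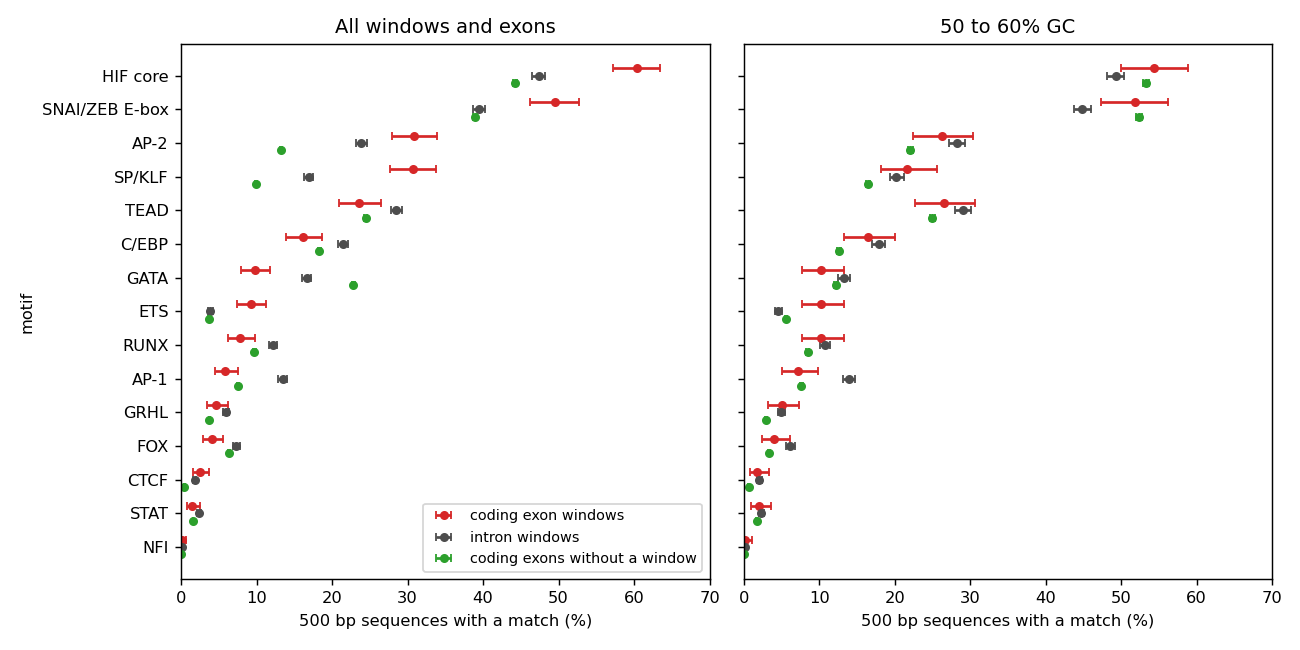
Share of 500 bp sequences (%) holding each of 15 motifs, in coding exon windows, intron windows and coding exons without a window, for all sequences (left) and for those of 50 to 60% GC (right); bars are exact 95% intervals. ETS stands above both comparison sets in both panels, and AP-1 lies below intron windows in both.

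Positions along the window were described without a test. The central 100 bp make up 20% of a window. Matches lay there in 8 of 23 cases for CTCF (34.8%, interval 16.4 to 57.3), 16 of 46 for GRHL (34.8%, interval 21.4 to 50.2) and 25 of 97 for ETS (25.8%, interval 17.4 to 35.7). In intron windows the central shares were 28.7% for CTCF, 24.6% for GRHL and 24.0% for ETS. In coding exons without a window they were 20.1%, 20.9% and 38.2%, so for ETS the share was lower in members than in those exons. Those sequences are centred on the middle of a coding interval and members on a called summit. Central shares in the 2 sets are therefore unlike measures, for every motif. For AP-1 the count was 9 of 57 (15.8%, interval 7.48 to 27.9), against 25.6% of 2162 matches in intron windows and 15.6% in coding exons without a window. For FOX it was 3 of 39 (7.69%, interval 1.62 to 20.9), against 20.9% in intron windows and 13.6% in coding exons without a window. GATA matches were central in 9 cases (8.41%), against 15.9% in intron windows.

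**Figure D4:**
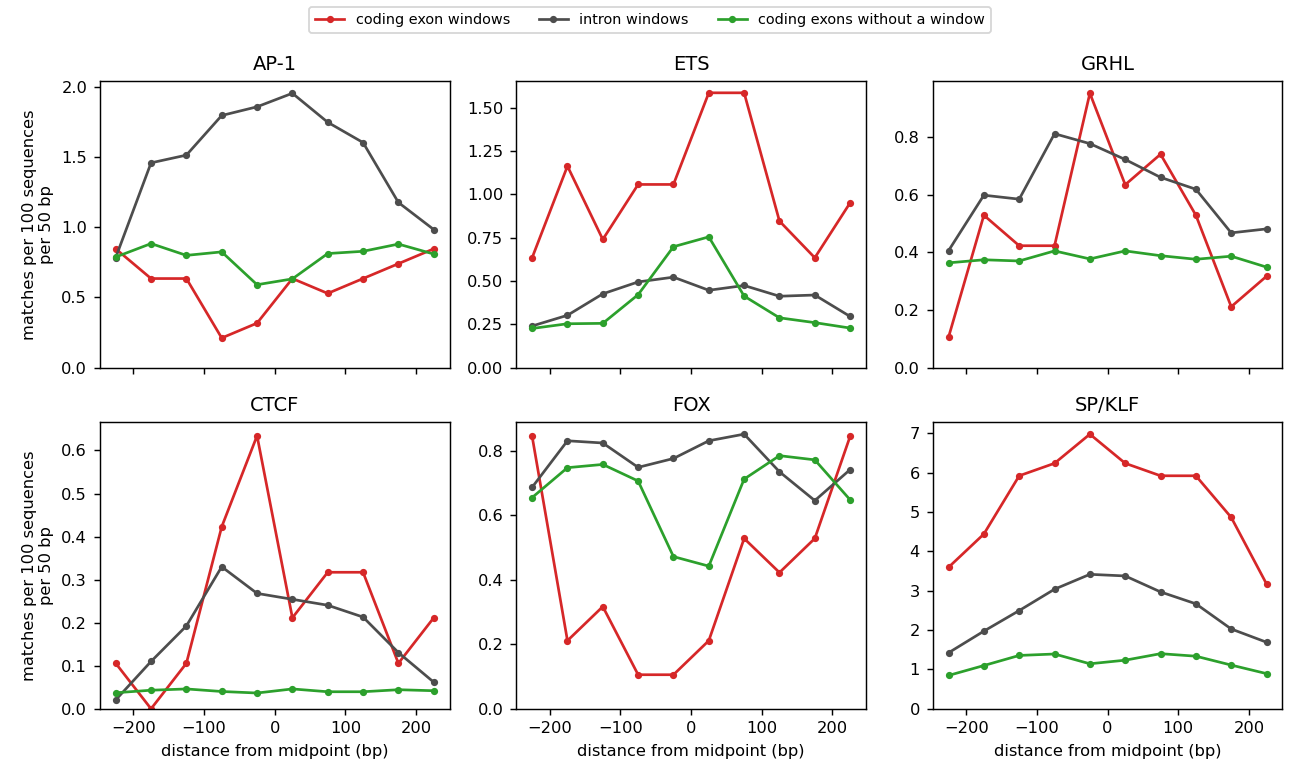
Motif matches per 100 sequences in 50 bp steps, by distance of the match from the midpoint in bp, for 6 motifs in coding exon windows, intron windows and coding exons without a window. AP-1 matches peak at the centre of intron windows and do not in coding exon windows, where 9 of 57 were central; the red lines for CTCF and GRHL rest on 23 and 46 matches.

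The members lay in 838 host genes, with 3 windows shared by a pair of overlapping genes and counted under the first. Of the 19570 protein-coding genes with any coding base over 1 kb from every start, 4.28% held a member and 56.9% held a window within 1 kb of a start. Host genes had a start window in 67.8% of cases, an intron window in 51.3% and neither in 19.3%. Of the 18732 genes without a member, 56.5% had a start window, and 4256 genes without a member had an intron window. The share of genes without a member that had neither is not given, so the 19.3% cannot be called high or low. Among genes with a start window 5.10% held a member, and among those without one 3.20%. Host genes had a median of 1642 coding bases over 1 kb from every start, against 1059 in the other genes, and the part of this difference in the counts was not tested. In 89.0% of host genes there was 1 member, in 78 genes there were 2 and in 14 there were 3 or more.

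The genes with the most members were Lor and BC068157, with 4 each. Lor encodes loricrin, a protein of the cornified envelope of skin. Its 4 windows came from 1 called peak and together (chr3:91884353-91886089) covered the whole of the only coding exon, of 1458 bp, and neither a start nor an intron window was found. Their GC content ran from 60.8 to 75.4%, and they held 31 to 61 CpGs each. The 4 windows of BC068157 also came from 1 called peak and spanned chr8:4212894-4214800, within coding exon 4 of 5, which is 2196 bp long.

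A further 12 genes held 3 members each, and the named ones are those reached by the rule of 12 genes. Irs1, the insulin receptor substrate, held 3 in its only coding exon of 3693 bp, at 1053, 1394 and 4457 bp from the start. Lrrn2, a leucine-rich repeat protein, held 3 in its only coding exon (chr1:134833835-134835943), 57.2 to 58.8 kb from the start, and had no start window. Bsn, which encodes the presynaptic scaffold Bassoon, held 3 in its coding exon 5 of 10, which is 6642 bp long, and had neither a start nor an intron window. The nearest start to these windows was that of Apeh, 16.1 to 18.3 kb away (16076 to 18294 bp).

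Fyco1, an adaptor that carries autophagosomes along microtubules, held 3 in its coding exon 7 of 17 (chr9:123737300-123738557), with only 3 to 7 CpGs each. Tcfap2b, which encodes an AP-2 factor, held 2 in coding exon 2 and 1 in its last coding exon, 22.0 kb from the start (22027 bp). B4galnt1, a ganglioside synthase, held 3 on coding exons 2, 3 and 9 of 10, and the first 2 of these came from a called peak with 5 windows. Trim46, a microtubule organizer of neurons, held 3 on coding exons 2, 6 and 7 of 9, each from its own called peak. Fam84b and 2810432L12Rik each held 3 in a single coding exon, and Kdm3b, a histone demethylase, held 3 in coding exon 7.

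The called peak with the most windows that reached a coding exon was at Dusp6, a phosphatase that shuts off ERK. It held 8 windows, of which 1 was a member, on coding exon 2 at 1645 bp from the start. Trib2, a pseudokinase, had 7 windows, with a member on the first coding exon. Jun (an AP-1 subunit), Klhl21 (a ubiquitin ligase adaptor), Dlx5 (a homeobox factor), Marcks (a substrate of protein kinase C) and Fam84b had 6 windows each. The Marcks member lay in the last coding exon with 75% GC and 74 CpGs. A930004D18Rik followed with 5 windows. Of these 8 members, 7 lay within 2.5 kb of a start (1054 to 2482 bp), and the last of them 10781 bp from it.

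The 5 members farthest from starts all lay on internal exons. Astn2, a neuronal protein, held one on a coding exon of 75 bp (chr4:65573381-65573880), 307348 bp from the nearest start, that of Trim32. It was followed by members in Slco3a1 at 205865 bp, Med13l at 191161 bp, Tns3 at 185016 bp and Mgat5 at 172767 bp. The Slco3a1 member lay within 1 kb of the start of a retained-intron transcript. All but the Tns3 member were the only window of their called peak, and their GC content ran from 44.6 to 58%.

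Just inside the 1 kb limit lay members in Adm (1011 bp), D430041D05Rik (1013 bp), Kcna7 and Shisa2 (1018 bp each) and Rpl6 (1019 bp). Just outside it, at 987 to 996 bp, lay coding exon windows in Tril, Gas2l1, Ccrl2, Ddit4 and Ptx3, which are not members. These values only show where the limit fell.

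Gene lists were read beside the share of all genes, 4.28%, as counts with no test. The list for the Notch and Wnt pathways, which pass signals between neighbouring cells, had 8 of 31 genes with a member (25.8%, interval 11.9 to 44.6) and 13 members in all. These made 140.2 windows per Mb of its coding sequence, against 32.6 over all genes. Of the 31 genes, 27 also had a window at a start. Notch4, a receptor, had 1 member on coding exon 16 and 1 on its last coding exon (chr17:34724323-34724822), the second with 74% GC and 63 CpGs, and no start window. Jag1, a Notch ligand, had 1 on coding exon 2, 1116 bp from the start, and 1 on coding exon 9, 23382 bp from it. Hes1, a Notch target, had 2 island-like members in its last coding exon (chr16:30066773-30067586). Fzd1 and Fzd7, Wnt receptors with a single coding exon, had 2 island-like members each, and Hey1, Notch2 and Lrp6 had 1 each. Notch1 and Notch3 had a start window and no member.

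Genes known for a single coding exon held members in 5 of 23 (21.7%, interval 7.46 to 43.7), at 312.6 windows per Mb (interval 134.9 to 615.9). That interval overlaps the one of the Notch and Wnt list (74.6 to 239.7). Irs2 and Dusp8 have several coding exons in the annotation. Besides Irs1 these were Irs2, with members at 1365 and 2557 bp, and Jun, Junb and Dusp8, with 1 each. Irs4 and Ier5 had none. The same Irs1 and Irs2 were the 2 of 26 receptor tyrosine kinases and adaptors with members (7.69%, interval 0.946 to 25.1), and the kinases Egfr and Erbb2 had a start window and no member.

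Genes of cell junctions and plakins, the proteins that tie cells to each other and to filaments, had 4 of 25 with a member (16%, interval 4.54 to 36.1). Their density of 33.2 windows per Mb stood beside 32.6 over all genes. Dst had 2 members, on coding exons 35 and 44 of 97 at 30282 and 40925 bp from a start, and Macf1, Ppl and the polarity gene Pard3 had 1 each. Dsp and Pkp3 had none. Of 26 chromatin regulators, 3 had a member (11.5%, interval 2.45 to 30.2), among them the histone methyltransferase genes Mll1 and Mll2, at 18.3 windows per Mb. The Mll1 member lay in coding exon 27 of 36, and the Mll2 member in coding exon 34 of 54 of a gene with no start window. The acetyltransferase genes Ep300 and Crebbp had none.

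Of 40 hypoxia response genes, 4 had a member (10%, interval 2.79 to 23.7). Pfkfb4, a regulator of glycolysis, had one on coding exon 11 of 14, 11018 bp from the start. Adm, which encodes the peptide adrenomedullin, had one on coding exon 2, and Bhlhe40, a repressor, on its last coding exon. The Hif3a member lay on coding exon 5 of 15 (chr7:17636271-17636770) and holds the CTCF match shown above. Vegfa and Slc2a1, a growth factor and a glucose transporter, had a start window and no member.

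Luminal epithelial genes had 1 of 28 with a member (3.57%, interval 0.0904 to 18.3), the transcription cofactor gene Lmo4, although 24 of the 28 had a start window. Among 30 neuronal genes, 7 had a start window and 2 had members, Bsn and the calcium channel gene Cacna1a, neither with a start window (6.67%, interval 0.818 to 22.1). The 2 members of Cacna1a lay on its final coding exons (chr8:87162510-87163717) with 42 and 82 CpGs. None of 28 immune and stromal marker genes had a member (upper limit 12.3%) or a start window.

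Gene families mostly lay near the share of all genes. Zinc finger genes held a member in 22 genes (interval 3.29 to 7.77%), solute carrier genes in 16 (4.53%), keratin genes in 2 of 46 (4.35%), collagen genes in 2 of 43 (4.65%) and ribosomal protein genes in 3 of 71 (4.23%). Zfp503, Zfp697, Zfp703 and Zscan10 had 2 members each. Protocadherin genes held one in 3 of 36 (8.33%) and homeobox cluster genes in 1 of 38 (2.63%), Hoxb3. None of the olfactory receptor genes with coding sequence over 1 kb from a start held one (upper limit 1.53%), and none of them had a start window.

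**Figure D5:**
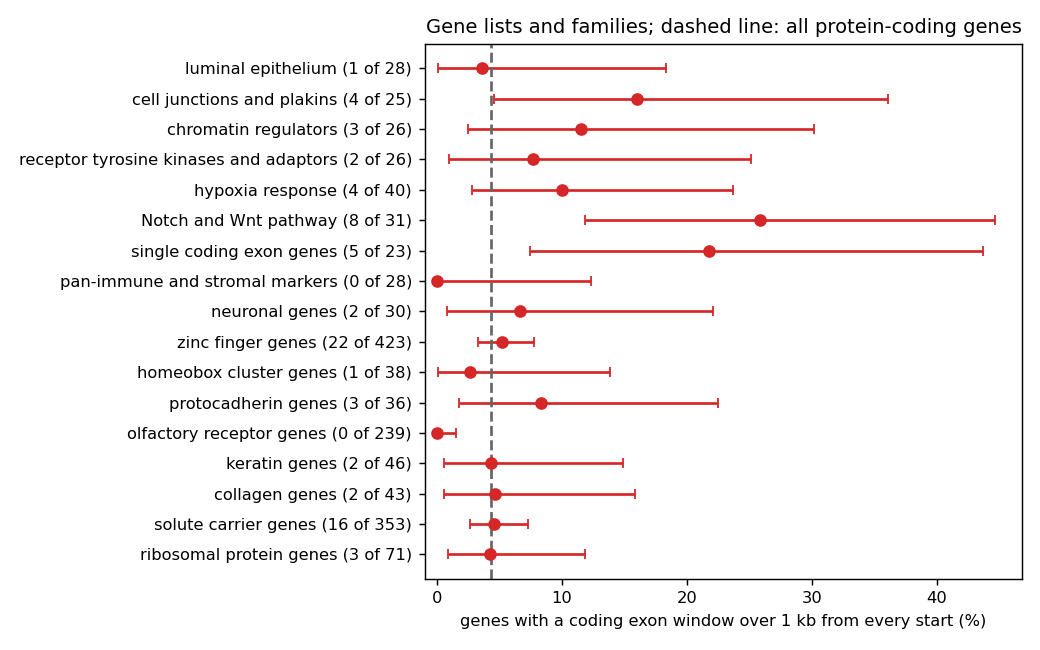
Share of genes (%) with a coding exon window over 1 kb from every start, for 9 gene lists and 8 families, with exact 95% intervals; the count of genes stands beside each name, and the dashed line marks all protein-coding genes at 4.28%. The Notch and Wnt list lies highest at 25.8%, and immune and stromal markers and olfactory receptors lie at 0.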

How the data were processed

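The deposited file is a list of 50000 windows of 500 bp on mm9, each with a name and no value. Per the study's methods and the submitters' processing notes, the authors mapped reads with Bowtie2 2.1.0, removed duplicates with Picard 1.79 and mitochondrial reads, called summits with MACS2 on pooled cells and kept the top windows. Windows named alike apart from a final letter were taken as 1 called peak. Midpoints were compared with GENCODE release M1 on 20 chromosomes (45939 protein-coding starts, 22350 genes) and with the mm9 genome. Territories counted all sequenced bases of each kind. Densities were compared by a two-sided exact binomial test against the share of bases, with exact intervals. For shares, Fisher's exact test (two-sided) was used, with Newcombe intervals for differences and Benjamini-Hochberg adjustment over 38 tests, at a threshold of 0.05 (scipy 1.17.1, statsmodels 0.14.6). Alternatives that left out some tests, such as the one without island-like windows, were adjusted over the tests that remained. The binomial and Fisher tests were both tested on simulated data. The named genes and windows were the 12 genes with the most members, the 8 called peaks with the most windows, up to 4 genes with and 2 without a member per list, the 5 farthest members, and 5 on each side of the limit. Of 267 list entries, 3 matched no gene (Eppk1, Sox1, Cebpd) and 5 matched through another RefSeq symbol. The members and lists were chosen with earlier results of these data known. Some named-gene results are not reported here.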

Additional observations from a re-analysis of the deposited data

How the results depend on the processing

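The list is 1 pooled sample with no scores, so depth, replicate error and mappability could not be weighed. No paired analysis was possible because the windows carry no replicate number. Windows were also limited to over 2 and over 5 kb from starts, to called peaks with 2 or more windows, to 1 per called peak or host gene, and to those away from any annotated start. Limits on GC, CpG islands, exon length, distance bin and complete transcripts, and several-summit shares per called peak, were added after seeing the data. Of the tested values that answer a comparison, 61 kept direction and side of the threshold, and 32 counts or shares with no test stayed within 1.5 times. The former include every density of coding against intron sequence and of last against internal exons. Among them, the coding to intron ratio with 1 window per host gene was raised by construction and tests nothing. With 1 window per called peak and the bases unchanged, the limit also removed a larger part of intron windows than of members. The rise of that ratio to 2.22 is therefore no added support. The cause of the changes below was not tested, except that some alternatives hold fewer windows.

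The ratio of first to internal exons lost its call over 2 kb (1.39) and 5 kb (1.32). Members, 1.89% of all windows, made up 1.10% with at least 250 coding bases, 4.66% with any coding base and 1.09% over 5 kb. Motifs lower than in introns numbered 3 in called peaks with 2 or more windows, 4 over 5 kb, 4 without island-like windows and 1 at 50 to 60% GC (6 before), and motifs higher numbered 4 without island-like windows and 2 at that GC (5 before). Against introns, C/EBP and TEAD lost their calls over 5 kb, and TEAD, RUNX and AP-2 without island-like windows. Motifs lower than in coding exons without a window (2 before) numbered 1 over 5 kb, 1 in peaks with 2 or more windows, 1 without island-like windows, 4 in the central 200 bp and 0 at 50 to 60% GC. The CpG island-like difference from intergenic windows lost its call at that GC (1.88 points). The neighbour share against introns, -3.71 points, became 0.866 per called peak, 10.7 per host gene, -3.40 within 1 kb and 0.926 within 20 kb. In peaks with 2 or more windows the neighbour difference was 0 by construction and tests nothing. Against intergenic windows, 0.242 points became -4.37 over 2 kb, -9.02 over 5 kb, 6.68 per called peak, 17.7 per host gene, -1.32 away from any start, -3.69 within 1 kb and 5.66 within 20 kb. The several-summit share rose above introns by 5.49 points per called peak and 5.82 per host gene, and above intergenic windows by 5.57 and 6.96.

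For single motifs, signs turned at 50 to 60% GC for AP-2 (-1.96), CTCF (-0.227), GRHL (0.0378) and NFI (0.0370) against introns, and for C/EBP (3.83, now past the threshold), FOX (0.704), RUNX (1.77), the E-box (-0.523), STAT (0.301) and TEAD (1.51) against coding exons without a window. Without island-like windows they turned for CTCF (-0.168) against introns and STAT (0.386) and TEAD (2.31) against coding exons. With members and coding exons without a window both limited to intervals over 300 bp, GRHL (-0.494) and NFI (-0.0482) turned. TEAD against coding exons turned over 2 kb (0.667) and 5 kb (2.25), STAT per called peak (0.00519) and per host gene (0.115), and NFI in peaks with 2 or more windows (-0.0319) and away from any start (-0.0319). NFI against introns turned over 5 kb (0.0506) and in the central 200 bp (0.0301). Only AP-2 against introns, the E-box and FOX against coding exons had been past the threshold before.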
